A study of Mus musculus with 17 samples.

Results

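The 42 genes described here encode the core machinery of DNA replication. They were chosen by name, as the protein-coding genes of a list of origin-binding, helicase, polymerase, clamp, single-strand binding, maturation and nucleotide-supply factors. The rule uses no measured value, but it was drawn up with earlier results of these data known. All 42 were among the 54532 genes of the deposited table, and all 42 passed the filter on low values, which kept 21871 genes. RNA was sequenced from R1/E mouse embryonic stem cells (mESCs), a line of pluripotent cells, in 17 libraries. Wild-type cells were sampled without retinoic acid (RA) at day 0 (n = 2), after 1 day (n = 3) and after 3 days (n = 3) of RA, which drives mESCs out of pluripotency. *Usb1* knockout cells were sampled at the same days (n = 3 each). *Usb1* encodes an enzyme that trims the tail of U6 snRNA. The knockout libraries came from KO-1, a single line made with CRISPR/Cas9, so the knockout and any other property of that line cannot be told apart. The question of the design was whether cells without *Usb1* leave pluripotency as wild-type cells do, and the comparisons below ask how the replication genes moved in each genotype.

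Replication starts when the origin recognition complex (Orc1 to Orc6), Cdc6 and Cdt1 load a ring of Mcm2 to Mcm7 onto DNA in G1, a step that geminin (*Gmnn*) blocks later in the cycle by binding Cdt1. In S phase Mcm10, Cdc45 and the GINS complex turn the ring into an active helicase, primase with polymerase α starts each strand, polymerases δ and ε extend it on the sliding clamp PCNA, and RPA covers the exposed single strands. mESCs cycle fast with a short G1, and many of these genes are transcribed under E2F control around the start of S phase, when their products are needed.

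TPM is a level scaled for gene length and for library size, so genes can be compared within a library. It is a share of a fixed total, so between libraries it also depends on the other genes. Some results are therefore also given with the libraries scaled to an equal median. Reads on genes, recovered from TPM and exon length, numbered 15404379 to 17300186 per library, and those on a single member 44 to 15602. The number of genes with a single read was 239 in wild-type replicate 1 at day 0 and 1224 in *Usb1* knockout replicate 1 at day 3. It was 1352 to 2467 in the other libraries, so the members' results that rest on the libraries with fewer are also given without them. Results of other gene lists and of markers are given with all libraries only. The TPM of *Usb1* itself at day 0 was 39.95 and 37.1 in the wild-type libraries but 15.5, 15.2 and 17.9 in those of the knockout. It was lower but still present, and the genotypes did not overlap on any day. The label of the cells held at day 0, when 8 pluripotency markers summed to 9414 to 10253 TPM over the libraries of both genotypes. At day 3 the sum was 1026 to 1259 TPM in wild-type and 1411 to 1771 TPM in *Usb1* knockout libraries. In bulk RNA, fewer cells in S phase and less RNA of a gene per cell cannot be told apart.

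The stretches of promoter shown here carry letters that E2F factors are known to bind, because E2F is a well known regulator of such genes. RefSeq promoter windows (GRCm38.p6, 250 bases before to 50 bases after the start) were found for 34 of the 42 members, those without one being *Gins1*, *Gins2*, *Gins4*, *Gmnn*, *Mcm4*, *Pole*, *Prim2* and *Rfc2*. TTTCCCGC, TTTGGCGC, TTTCGCGC or TTTGCCGC, on either strand, was found in a window of 13 of the 34 (38.2%), against 2.60% of all genes with a window. The 13 were *Cdc6*, *Cdt1*, *Lig1*, *Mcm3*, *Mcm5*, *Mcm6*, *Mcm7*, *Orc1*, *Orc3*, *Pola1*, *Pold1*, *Pole2* and *Rfc3*. CCAAT, on either strand, was in 64.7% of the 34 against 41.1% of all genes, and TTTGAA or TTCGAA, the CHR element of mitotic genes, in 17.6% against 21.7%. Shown are the members that hold the E2F letters wholly before their start and that fell at least 2-fold from day 0 to day 3 in wild-type cells, apart from *Orc1*, whose stretch overlaps an exon of the annotation. Each runs 5′ to 3′ on the strand of its gene, with the matched letters in capitals, and in *Mcm6* and *Mcm5* a match on one strand overlaps a match on the other. *Mcm6* is at chr1:128359725-128359835 (minus strand), *Mcm5* at chr8:75109336-75109387 (plus), *Cdc6* at chr11:98907993-98908040 (plus) and *Pola1* at chrX:93632266-93632313 (minus).
Mcm6: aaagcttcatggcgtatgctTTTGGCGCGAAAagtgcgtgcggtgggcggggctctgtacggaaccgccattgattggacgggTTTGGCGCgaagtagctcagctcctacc
Mcm5: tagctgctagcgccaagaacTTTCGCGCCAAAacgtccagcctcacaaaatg
Cdc6: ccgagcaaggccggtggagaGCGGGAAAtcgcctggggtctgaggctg
Pola1: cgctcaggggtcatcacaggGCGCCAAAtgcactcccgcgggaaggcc
From day 1 to day 3 the median log2 fold change was −0.67 in wild-type and −0.68 in *Usb1* knockout cells over the 13 genes with a match, and −0.72 and −0.61 over the 21 without, with 12 and 18 of them lower in each genotype.

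In wild-type cells at day 0 the highest means were those of *Mcm5* (794 TPM), *Mcm6* (559 TPM), *Mcm3* (498 TPM), *Rrm2* (477 TPM) and *Pcna* (452 TPM), and the lowest were those of *Prim2* (34.9 TPM), *Orc4* (26.8 TPM) and *Fen1* (10.5 TPM). Of the exon length of *Fen1*, 78.8% lies over a gene on the other strand, and the counting is not stated to use strand, so its place is uncertain. The order changed with RA and with genotype. *Rpa1* was 11 in the order of the wild-type means at day 0 and 1 at day 3, and *Mcm10* went from 25 to 39. *Mcm6* was 2 in wild-type and 8 in *Usb1* knockout cells at day 0. Summed over the 42 genes, TPM was 7635 ± 54.1 (SD, n = 2) at day 0, 7036 ± 129 (SD, n = 3) at day 1 and 3945 ± 98.8 (SD, n = 3) at day 3 in wild-type cells. In *Usb1* knockout cells the sums were 7780 ± 155, 7098 ± 44.6 and 4185 ± 67.6 TPM (SD, n = 3 each).

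**Figure D1:**
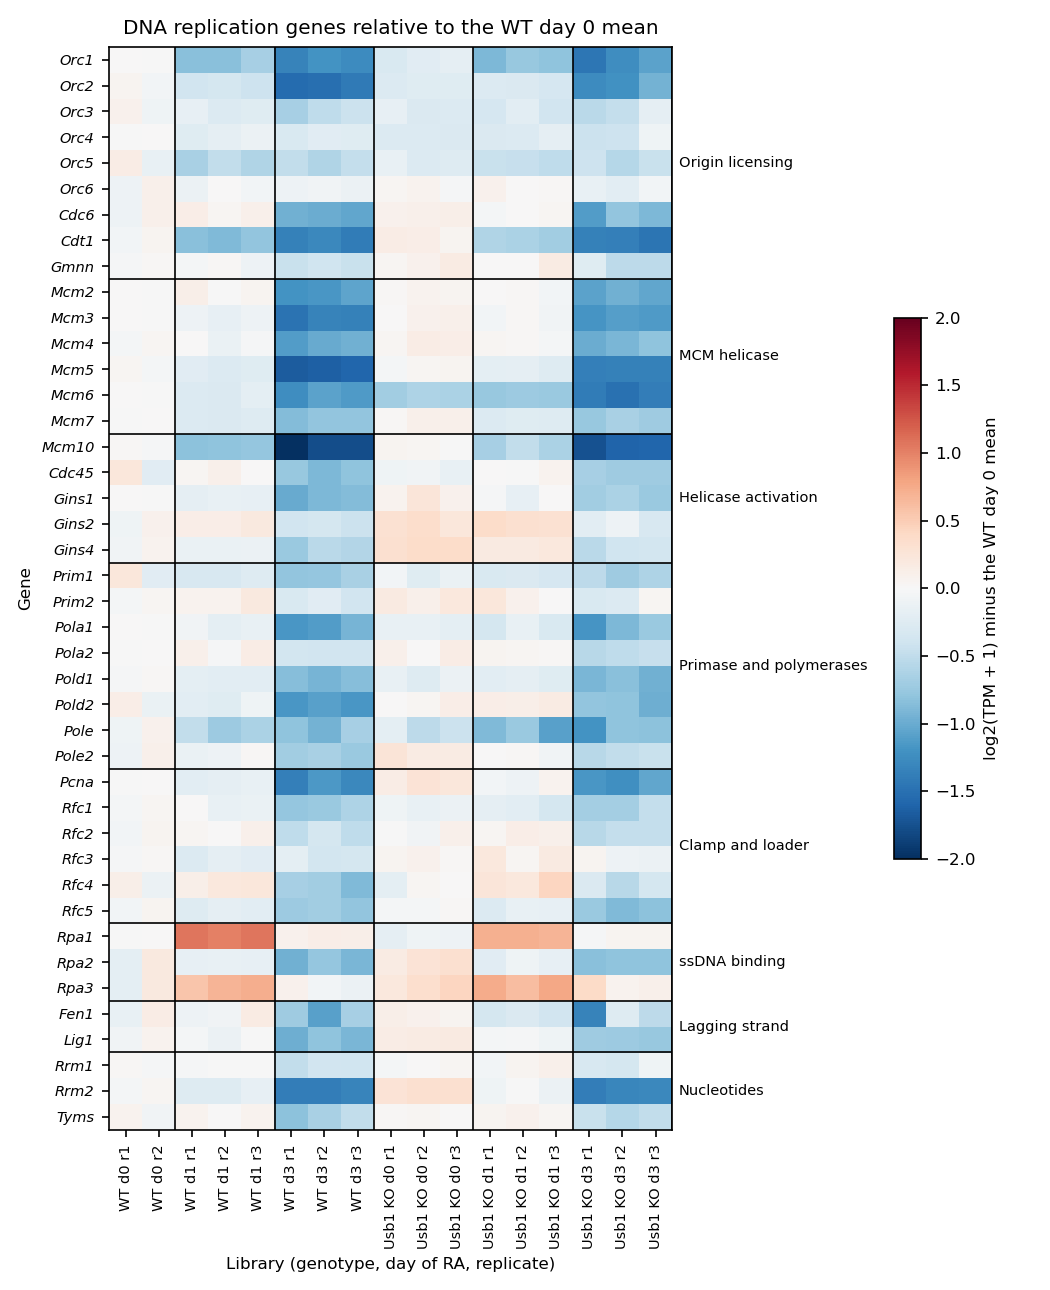
Level of each of the 42 genes (rows, by role) in each of the 17 libraries (columns, by genotype, day and replicate), as log2(TPM + 1) minus the mean of the wild-type libraries at day 0, with blue for lower and red for higher. The day 3 columns of both genotypes are blue in nearly every row, *Rpa1* and *Rpa3* are red at day 1, and the *Mcm6* row is blue in the *Usb1* knockout from day 0.

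Most of the fall came from day 1 to day 3, a longer step than that from day 0 to day 1, so the sizes of the 2 steps are not rates. Differences are given below as log2 fold changes of log2(TPM + 1), and a gene passed the test at a limma adjusted p under 0.05 over all genes tested. From day 1 to day 3, a comparison that uses no day 0 library, 37 of the 42 genes were lower and 0 higher in wild-type cells, where 24.3% of all genes tested were lower and 19.5% higher, and 8 of them fell at least 2-fold (7.54% of all genes). In *Usb1* knockout cells 37 were also lower and 0 higher, against 19.4% and 25.5% of all genes, and 6 fell at least 2-fold (5.73%). At an unadjusted p under 0.05 the number higher was 0 in each genotype. The median log2 fold change of the members was −0.68 and −0.62, beside −0.07 and 0.04 over all genes. In both genotypes 35 genes were lower (15.8% of all genes), and *Mcm2*, *Mcm3*, *Mcm5*, *Mcm10*, *Pcna* and *Rrm2* fell at least 2-fold in both (4.05% of all genes). *Orc4*, *Orc5* and *Pole* passed in neither genotype, *Orc3* and *Fen1* passed in wild-type cells alone, and *Orc6* and *Rfc3* in *Usb1* knockout cells alone. For these 4 the difference between the genotypes had an adjusted p of 0.391, 0.437, 0.348 and 0.522, so none was shown to differ. Leaving out 1 library at a time ended the call of 1 gene in wild-type cells (*Orc3*, without replicate 1 of day 1 or replicate 1 of day 3) and of 4 in *Usb1* knockout cells, which are given with their roles.

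**Figure D2:**
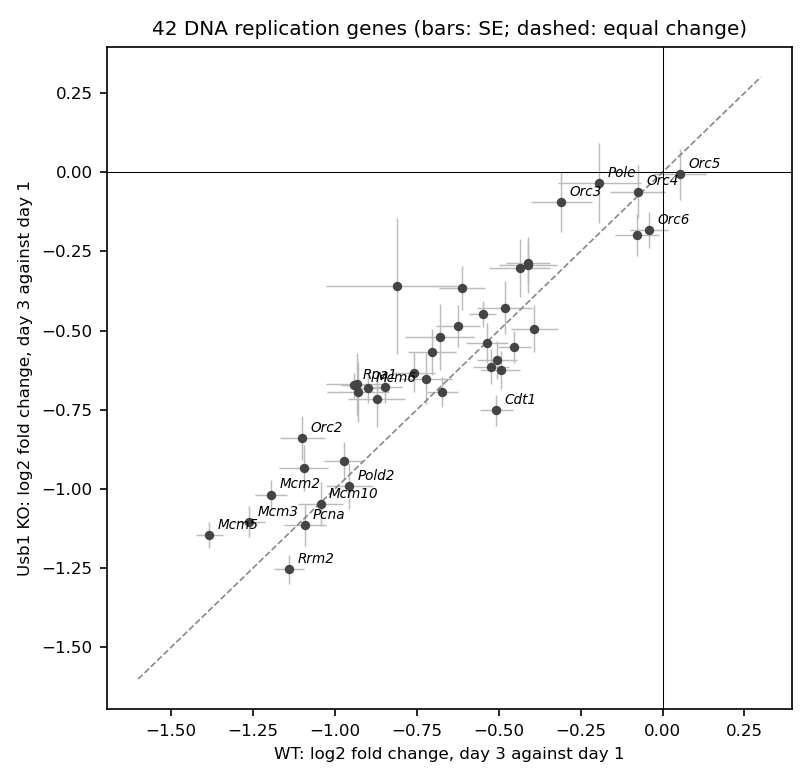
Log2 fold change from day 1 to day 3 of each of the 42 genes in wild-type cells (x axis) and *Usb1* knockout cells (y axis), with SE bars and the line of equal change dashed. The points run from *Orc5*, near 0 in both, to *Mcm5*, *Mcm3* and *Rrm2* below −1 in both, and 27 of the 42 lie above the line, where the fall was smaller in the knockout. The median change in the knockout minus that in wild-type cells was 0.12 over the members and 0.13 over all genes. With the libraries scaled to an equal median it was −0.10 over the members.

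Between the genotypes these changes correlated across the 42 genes (Pearson's r = 0.908, Spearman's rho = 0.898), a description across genes that share libraries and are not replicates. The first day moved fewer of them. From day 0 to day 1, 14 were lower and 2 higher in wild-type cells (12.5% of all genes lower, 25.5% higher), and 14 were lower and 3 higher in *Usb1* knockout cells (11.7% and 16.0%). The medians were −0.13 and −0.10, beside 0.17 and 0.02 over all genes. With the libraries scaled to an equal median they were −0.34 and −0.19, and from day 0 to day 3 they were −1.01 and −1.06. Scaling the libraries to an equal median gave 27 lower and 1 higher in wild-type cells and 15 lower and 1 higher in *Usb1* knockout cells. These counts are given without the share of all genes under that scaling. Lower in both genotypes were *Mcm5*, *Mcm7*, *Mcm10*, *Orc1*, *Orc5*, *Cdt1*, *Rfc5*, *Pole* and *Rrm2* (7.93% of all genes), and higher in both were *Rpa1* and *Rpa3* (13.4% of all genes), of which *Rpa3* did not pass with an equal median in either genotype (adjusted p = 0.0511 and 0.167). Leaving out 1 library ended the day 1 calls of *Rfc3*, *Rfc5* and *Prim1* in wild-type cells (adjusted p up to 0.570, that of *Prim1* without replicate 1 of day 0) and of *Orc5*, *Gins1*, *Pcna*, *Rfc4*, *Rfc5*, *Rpa3* and *Pole2* in *Usb1* knockout cells (up to 0.157, that of *Gins1* without replicate 2 of day 0). Of the members that did not pass at day 1, 24 of 26 in wild-type and 22 of 25 in *Usb1* knockout cells were lower from day 1 to day 3. The share of all genes with this pattern was not counted. Over the 3 days together, 39 members were lower and 1 higher in wild-type cells (22.5% of all genes lower, 29.6% higher), 14 of them at least 2-fold lower (9.68%). In *Usb1* knockout cells 37 were lower and 1 higher (21.8% and 29.7%), 11 of them at least 2-fold lower (8.04%). Leaving out 1 library ended the wild-type calls of *Orc4* (any 1 of the 5, adjusted p from 0.0533 to 0.101), *Rpa1*, *Prim2* (replicate 2 of day 0 or 3 of day 3, up to 0.105) and *Fen1* (replicate 2 of day 0, 0.0820). In the knockout it ended those of *Orc6* and of *Orc5* (replicate 1 of day 0 or 2 of day 3, up to 0.0838). Both genotypes shared 36 lower members (16.5% of all genes), and *Mcm2*, *Mcm3*, *Mcm4*, *Mcm5*, *Mcm10*, *Orc1*, *Cdc6*, *Cdt1*, *Pcna* and *Rrm2* fell at least 2-fold in both (5.43%).

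The origin recognition complex, which marks where replication can start, was uneven. From day 1 to day 3 only *Orc1* and *Orc2* among its 6 genes fell in both genotypes. *Orc1*, the subunit that binds Cdc6, was at 103 and 102 TPM at day 0, 56.8, 56.8 and 63.9 at day 1 and 39.8, 44.1 and 42.3 at day 3 in wild-type libraries. In the knockout *Orc1* was at 82.1, 87.2 and 89.7 TPM at day 0, 54.5, 59.9 and 58.1 at day 1 and 37.1, 42.7 and 48.3 at day 3. Most of its fall came on the first day, −0.78 (SE 0.09, adjusted p = 1.41e-05) in wild-type and −0.58 (SE 0.08, adjusted p = 0.000111) in *Usb1* knockout cells. *Orc2* (ENSMUSG00000026037; GRCm38 chromosome 1, 58462771 to 58505109, minus strand) was at 165 and 151 TPM at day 0, 121, 124 and 118 at day 1 and 54.0, 55.0 and 59.0 at day 3 in wild-type libraries. In the knockout *Orc2* was at 131, 133 and 133 TPM at day 0, 130.1, 129 and 126 at day 1 and 65.7, 67.6 and 81.8 at day 3. All wild-type libraries of *Orc2* were above all knockout libraries at day 0 and below them at day 3. *Orc6* lay between 137 and 171 TPM over the 17 libraries, and its change from day 0 to day 3 was −0.10 (SE 0.06, adjusted p = 0.235) in wild-type and −0.18 (SE 0.06, adjusted p = 0.0178) in *Usb1* knockout cells. The second of these did not hold without knockout replicate 2 of either day (adjusted p = 0.0689 and 0.0798), nor did its call from day 1 to day 3 without replicate 1 of day 1 (0.0669) or replicate 2 of day 3 (0.0796). *Orc5* fell on the first day in wild-type cells, −0.58 (SE 0.09, adjusted p = 0.000165), and its value from day 1 to day 3 was 0.05 (SE 0.08, adjusted p = 0.653). Its fall on that day in *Usb1* knockout cells, −0.24 (SE 0.08, adjusted p = 0.04), was lost without any 1 of the 6 libraries (adjusted p from 0.0572 to 0.146). Of the exon length of *Orc2*, 29.8% lies over *Nif3l1* on the other strand, and the counting is not stated to use strand, so reads of such pairs cannot be told apart.

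Of the loaders of the helicase, *Cdt1* fell in both steps, and *Cdc6* passed the test as lower only after the first day. *Cdt1* (ENSMUSG00000006585; GRCm38 chromosome 8, 122568015 to 122573554, plus strand), which brings the ring to the origin, was at 382 and 413 TPM at day 0, 221, 215 and 230.5 at day 1 and 156, 162 and 150.3 at day 3 in wild-type libraries. In the knockout *Cdt1* was at 439.7, 435 and 410.1 TPM at day 0, 262, 254 and 246 at day 1 and 154, 153 and 143 at day 3. No group overlapped another within a genotype, and on the first day it changed by −0.83 (SE 0.06, adjusted p = 5.14e-08) in wild-type and −0.75 (SE 0.05, adjusted p = 6.13e-08) in *Usb1* knockout cells. From day 1 to day 3 *Cdt1* changed by −0.51 (SE 0.05, adjusted p = 1.12e-06) and −0.75 (SE 0.05, adjusted p = 1.67e-08). *Cdc6*, its partner in loading, was at 61.9 and 71.3 TPM at day 0, 73.3, 68.5 and 71.2 at day 1 and 33.5, 32.8 and 31.8 at day 3 in wild-type libraries. In the knockout *Cdc6* was at 70.6, 71.3 and 72.4 TPM at day 0, 64.3, 66.9 and 68.1 at day 1 and 30.3, 38.0 and 35.0 at day 3. It did not pass the test on the first day in either genotype (0.09 and −0.10) and then changed by −1.10 (SE 0.07, adjusted p = 1.74e-08) and −0.93 (SE 0.07, adjusted p = 9.45e-08). *Gmnn*, the inhibitor of Cdt1, was at 153 and 159.7 TPM at day 0, 152, 159 and 146 at day 1 and 115, 118 and 114 at day 3 in wild-type libraries. In the knockout *Gmnn* was at 161, 166 and 176 TPM at day 0, 157, 158 and 176 at day 1 and 132, 108 and 108 at day 3. Of the 3 genes it fell least. The ratio of *Cdt1* to *Gmnn* TPM was 2.54 ± 0.0667 (SD, n = 2) at day 0, 1.46 ± 0.116 (SD, n = 3) at day 1 and 1.35 ± 0.0315 (SD, n = 3) at day 3 in wild-type cells. In *Usb1* knockout cells it was 2.56 ± 0.205, 1.56 ± 0.144 and 1.303 ± 0.126 (SD, n = 3 each).

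All 6 genes of the MCM ring fell from day 1 to day 3 in both genotypes, by a median log2 fold change of −1.08 in wild-type and −0.96 in *Usb1* knockout cells. *Mcm5* (ENSMUSG00000005410; GRCm38 chromosome 8, 75109569 to 75128439, plus strand) was the most abundant at day 0 and fell furthest, and was at 818 and 770.04 TPM at day 0, 681, 654 and 673 at day 1 and 250.1, 255 and 263 at day 3 in wild-type libraries. In the knockout *Mcm5* was at 774, 811 and 827 TPM at day 0, 692, 701 and 665 at day 1 and 307, 312 and 310.2 at day 3. The genotypes overlapped for *Mcm5* at day 0 and day 1, and at day 3 all knockout libraries were above all wild-type ones. Its fall from day 1 to day 3 was −1.38 (SE 0.04, adjusted p = 3.53e-12) in wild-type and −1.14 (SE 0.04, adjusted p = 2.33e-11) in *Usb1* knockout cells. *Mcm2* was at 278 and 277 TPM at day 0, 301, 278 and 288 at day 1 and 120.4, 123 and 133 at day 3 in wild-type libraries. In the knockout *Mcm2* was at 282, 291 and 289 TPM at day 0, 278, 282 and 269 at day 1 and 131, 142 and 135 at day 3. Day 3 was the lowest day in both. *Mcm4* was at 357 and 378 TPM at day 0, 367, 336 and 359 at day 1 and 169, 182 and 189 at day 3 in wild-type libraries. In the knockout *Mcm4* was at 378, 407 and 402 TPM at day 0, 376, 373 and 358 at day 1 and 184, 195 and 209 at day 3. Neither gene passed the test on the first day in either genotype, and both then fell. *Mcm3* was at 501 and 495 TPM at day 0, 466, 443 and 464 at day 1 and 178, 197 and 196 at day 3 in wild-type libraries. In the knockout *Mcm3* was at 499, 526 and 536 TPM at day 0, 482, 507 and 475 at day 1 and 220.4, 231 and 227 at day 3. Its day 3 libraries were far below the rest. *Mcm7* was at 415 and 417 TPM at day 0, 346, 342 and 349 at day 1 and 227, 241 and 239.9 at day 3 in wild-type libraries. In the knockout *Mcm7* was at 421, 445 and 446 TPM at day 0, 344, 350.3 and 349 at day 1 and 245, 265 and 255 at day 3. *Mcm7* fell least of the 6 from day 1 to day 3, by −0.55 (SE 0.04, adjusted p = 5.59e-08) and −0.45 (SE 0.04, adjusted p = 4.49e-07). The ratio of the highest to the lowest of them went from 2.86 ± 0.117 (SD, n = 2) at day 0 to 2.07 ± 0.0878 (SD, n = 3) at day 3 in wild-type cells, and from 2.80 ± 0.0567 to 2.28 ± 0.0663 (SD, n = 3 each) in *Usb1* knockout cells.

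**Figure D3:**
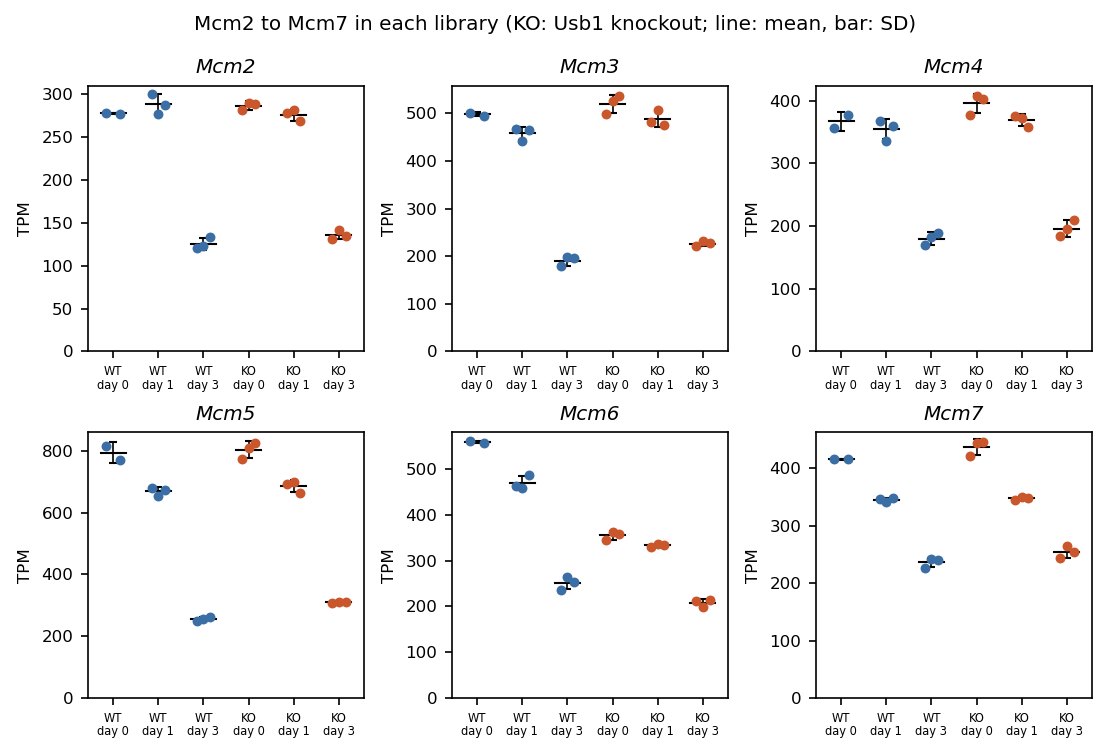
TPM of *Mcm2* to *Mcm7* (1 panel each, axis from 0) in each library of the 6 groups, with wild-type in blue, *Usb1* knockout (KO) in orange, the group mean as a line and the SD as a bar. Every panel drops between day 1 and day 3, and only in the *Mcm6* panel do the knockout libraries lie below the wild-type ones at day 0 and day 1.

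The factors that switch the ring on fell as well. *Mcm10*, which acts when the ring is opened, had the largest fall of all members from day 0 to day 3, and was at 95.5 and 92.8 TPM at day 0, 52.6, 53.3 and 54.5 at day 1 and 22.7, 27.0 and 26.8 at day 3 in wild-type libraries. In the knockout *Mcm10* was at 97.5, 96.3 and 93.7 TPM at day 0, 59.2, 66.5 and 60.4 at day 1 and 27.3, 30.5 and 30.7 at day 3. Over the 3 days it changed by −1.85 (SE 0.08, adjusted p = 7.24e-11) in wild-type and −1.67 (SE 0.07, adjusted p = 5.42e-11) in *Usb1* knockout cells, and it fell in both steps. *Cdc45* was at 66.3 and 48.0 TPM at day 0, 58.3, 60.7 and 56.7 at day 1 and 32.8, 29.96 and 31.9 at day 3 in wild-type libraries. In the knockout *Cdc45* was at 52.9, 53.4 and 50.6 TPM at day 0, 56.7, 56.2 and 59.4 at day 1 and 35.4, 34.2 and 34.1 at day 3. The fall after day 1 was −0.87 (SE 0.09, adjusted p = 1.16e-06) and −0.72 (SE 0.09, adjusted p = 8.26e-06). Of the GINS genes, *Gins1* was at 82.7 and 82.4 TPM at day 0, 72.9, 74.7 and 73.7 at day 1 and 40.6, 44.0 and 45.0 at day 3 in wild-type libraries. In the knockout *Gins1* was at 86.9, 98.0 and 87.2 TPM at day 0, 81.6, 73.4 and 82.8 at day 1 and 50.6, 52.9 and 48.7 at day 3. Both genotypes were lowest at day 3. *Gins4* was at 149 and 166 TPM at day 0, 142, 142 and 145 at day 1 and 93.1, 107 and 104 at day 3 in wild-type libraries. In the knockout *Gins4* was at 197, 202 and 203 TPM at day 0, 178, 177 and 181 at day 1 and 107, 118 and 121 at day 3. Its knockout libraries were all above the wild-type ones on every day. In the knockout relative to wild type *Gins4* was at 0.35, 0.32 and, without passing, 0.18 over the days. The 26 other protein-coding genes with a mean of at least 10 TPM within 2.5 Mb of it had medians of 0.02, −0.10 and 0.22. *Gins2* fell least of the 5 factors over the 3 days, by −0.39 (SE 0.07, adjusted p = 0.00033) in wild-type and −0.50 (SE 0.06, adjusted p = 9.06e-06) in *Usb1* knockout cells. Of the exon length of *Gins2*, 67.3% lies over *Gse1* on the other strand, which was at 47.3 to 131 TPM.

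Among primase and polymerase genes, 7 of 8 fell from day 1 to day 3 in each genotype, all but *Pole*. The value of *Pole* from day 1 to day 3 was −0.19 (SE 0.13, adjusted p = 0.248) and −0.03 (SE 0.13, adjusted p = 0.869). *Pole*, the catalytic subunit of the leading-strand polymerase, was at 75.1 and 84.4 TPM at day 0, 56.7, 47.9 and 50.9 at day 1 and 45.0, 40.7 and 50.1 at day 3 in wild-type libraries. In the knockout *Pole* was at 69.3, 55.2 and 58.8 TPM at day 0, 42.6, 47.2 and 37.0 at day 1 and 34.1, 45.4 and 44.6 at day 3. Its fall came on the first day, −0.61 (SE 0.14, adjusted p = 0.00328) and −0.52 (SE 0.13, adjusted p = 0.00613). *Pola1*, the catalytic subunit of polymerase α, was at 55.7 and 54.7 TPM at day 0, 52.5, 48.0 and 49.8 at day 1 and 24.2, 24.8 and 28.6 at day 3 in wild-type libraries. In the knockout *Pola1* was at 49.5, 49.7 and 48.2 TPM at day 0, 43.0, 49.7 and 44.6 at day 1 and 23.9, 29.3 and 32.7 at day 3. It fell from day 1 to day 3 by −0.93 (SE 0.10, adjusted p = 1.81e-06) and −0.67 (SE 0.10, adjusted p = 4.75e-05). All its day 3 libraries lay below those of day 1. *Pold1*, the catalytic subunit of polymerase δ, was at 161 and 167 TPM at day 0, 143, 142 and 142 at day 1 and 90.4, 85.8 and 90.3 at day 3 in wild-type libraries. In the knockout *Pold1* was at 147, 137 and 151 TPM at day 0, 142, 145 and 138 at day 1 and 86.6, 91.0 and 83.8 at day 3. Its day 3 libraries were the lowest of each genotype. *Pold2*, its accessory subunit, was at 251 and 207 TPM at day 0, 196, 193 and 214 at day 1 and 101, 107 and 101 at day 3 in wild-type libraries. In the knockout *Pold2* was at 229, 234 and 251 TPM at day 0, 251, 247 and 255 at day 1 and 132, 129.8 and 116 at day 3. The knockout libraries of *Pold2* were all above the wild-type ones at day 1 and at day 3. *Prim1*, *Prim2*, *Pola2* and *Pole2* had log2 fold changes from day 1 to day 3 of −0.44, −0.41, −0.45 and −0.62 in wild-type and −0.30, −0.29, −0.55 and −0.49 in *Usb1* knockout cells. The calls of *Prim1* and *Prim2* in the knockout did not hold without replicate 2 of day 3 (adjusted p = 0.0688 and 0.0644), and that of *Prim2* did not hold without replicate 1 of day 1 (0.0724) or of day 3 (0.0622).

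The sliding clamp fell from day 1 to day 3 in both genotypes, as did 4 of the 5 genes of its loader in wild-type and 5 in *Usb1* knockout cells. *Pcna* (ENSMUSG00000027342; GRCm38 chromosome 2, 132249162 to 132253314, minus strand) was at 449 and 454 TPM at day 0, 388, 397 and 409 at day 1 and 174, 203 and 183 at day 3 in wild-type libraries. In the knockout *Pcna* was at 498, 546 and 527 TPM at day 0, 437, 419 and 472 at day 1 and 200.2, 193 and 219 at day 3. After day 1 it changed by −1.09 (SE 0.06, adjusted p = 4.48e-09) in wild-type and −1.11 (SE 0.06, adjusted p = 3.72e-09) in *Usb1* knockout cells. *Pcna-ps2*, listed as a protein-coding copy of *Pcna*, was at 94.3 to 306 TPM, so the share of reads given to *Pcna* is uncertain. The 5 genes of the loader had a median of −0.52 and −0.59. *Rfc3* was at 50.7 and 52.8 TPM at day 0, 42.8, 45.8 and 44.0 at day 1 and 45.3, 39.97 and 40.4 at day 3 in wild-type libraries. In the knockout *Rfc3* was at 53.8, 55.0 and 52.8 TPM at day 0, 60.03, 53.0 and 58.6 at day 1 and 53.6, 48.2 and 47.6 at day 3. Its call from day 1 to day 3 in the knockout (adjusted p = 0.025) did not hold without replicate 1 or 3 of day 1 or replicate 2 or 3 of day 3 (adjusted p from 0.0800 to 0.103). *Rfc4* fell most, and was at 122 and 104 TPM at day 0, 122, 129.8 and 131 at day 1 and 70.9, 68.9 and 60.2 at day 3 in wild-type libraries. In the knockout *Rfc4* was at 98.1, 115 and 113 TPM at day 0, 133, 131 and 152 at day 1 and 92.2, 76.2 and 87.8 at day 3. Of the exon length of *Rfc4*, 12.7% lies over *Eif4a2* on the other strand, which was at 264 to 511 TPM. Of the genes that finish the lagging strand, the ligase *Lig1* changed by −0.85 (SE 0.05, adjusted p = 4.13e-09) and −0.68 (SE 0.05, adjusted p = 4.28e-08). The flap nuclease *Fen1* was listed at 3.52 to 11.7 TPM over the 17 libraries, and 78.8% of its exon length lies over *Gm10143* on the other strand, which was at 0.697 to 3.64 TPM.

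In the single-strand binding complex RPA, *Rpa1* and *Rpa3* rose on the first day in both genotypes, and *Rpa2* did not. *Rpa1* (ENSMUSG00000000751; GRCm38 chromosome 11, 75298166 to 75348324, minus strand), its large subunit, was at 243 and 247 TPM at day 0, 517, 496 and 517 at day 1 and 261, 269.9 and 265 at day 3 in wild-type libraries. In the knockout *Rpa1* was at 216, 230.1 and 228 TPM at day 0, 404, 402 and 392 at day 1 and 242, 254 and 254 at day 3. Every library at day 1 was far above every library at day 0 and day 3, and the rise on the first day was 1.05 (SE 0.04, adjusted p = 4.18e-10) in wild-type and 0.83 (SE 0.04, adjusted p = 1.64e-09) in *Usb1* knockout cells. *Rpa1* then changed by −0.94 (SE 0.04, adjusted p = 1.13e-10) and −0.67 (SE 0.04, adjusted p = 3.98e-09). From day 0 to day 3 it was the 1 member higher in both genotypes, by 0.11 (SE 0.04, adjusted p = 0.0434) and 0.15 (SE 0.04, adjusted p = 0.0043). The wild-type call was lost without any 1 of the 5 libraries, and with the libraries scaled to an equal median the sign turned in both genotypes (−0.10 and −0.16). *Rpa3*, the small subunit, was at 86.1 and 113 TPM at day 0, 145, 158 and 164 at day 1 and 104, 95.2 and 90.9 at day 3 in wild-type libraries. In the knockout *Rpa3* was at 114, 124 and 133 TPM at day 0, 166, 152 and 169 at day 1 and 129, 104 and 106 at day 3. It rose on the first day by 0.65 (SE 0.12, adjusted p = 0.000542) and 0.39 (SE 0.10, adjusted p = 0.0129), the second of which was lost without knockout replicate 1 of day 0 (adjusted p = 0.0598). *Rpa2*, the middle subunit, was at 103 and 134 TPM at day 0, 104, 105 and 105 at day 1 and 59.7, 68.1 and 61.8 at day 3 in wild-type libraries. In the knockout *Rpa2* was at 132, 142 and 147 TPM at day 0, 99.7, 111 and 104 at day 1 and 65.4, 66.5 and 66.9 at day 3. Its first-day value was −0.16 (SE 0.09, adjusted p = 0.182) in wild-type and −0.42 (SE 0.08, adjusted p = 0.00129) in *Usb1* knockout cells. The ratio of *Rpa1* to *Rpa2* TPM was 2.105 ± 0.368 (SD, n = 2), 4.87 ± 0.143 and 4.20 ± 0.212 (SD, n = 3 each) over the days in wild-type cells, and 1.60 ± 0.0451, 3.82 ± 0.209 and 3.77 ± 0.0694 (SD, n = 3 each) in *Usb1* knockout cells.

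**Figure D4:**
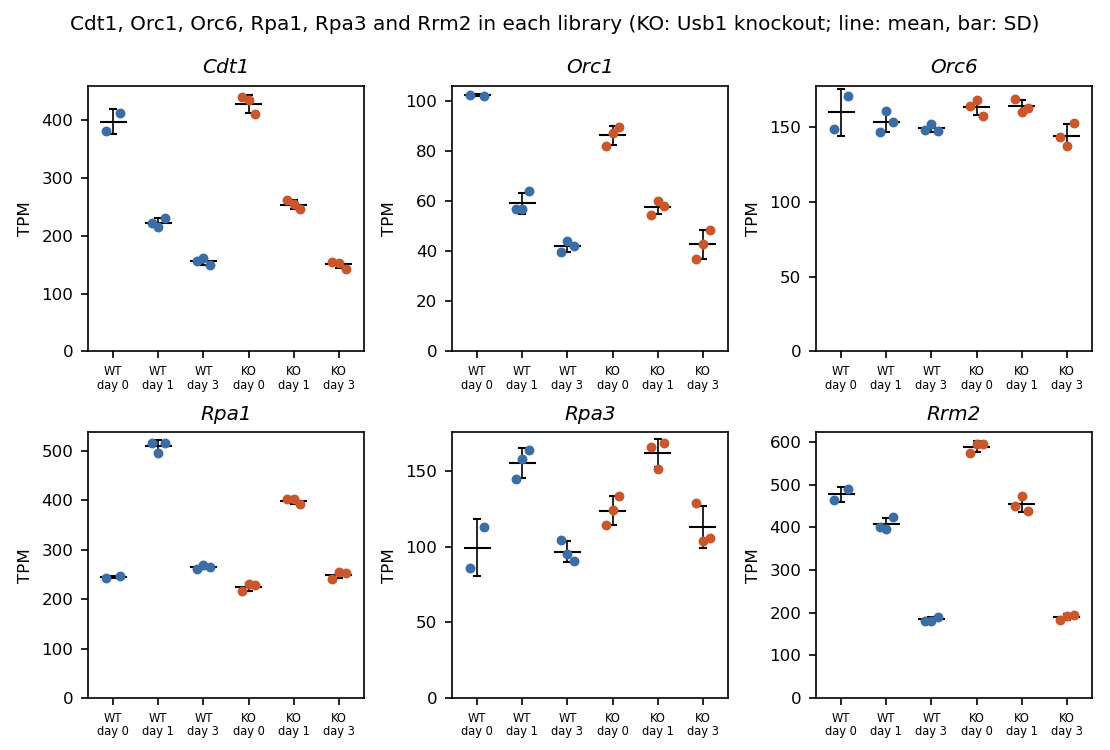
TPM of *Cdt1*, *Orc1*, *Orc6*, *Rpa1*, *Rpa3* and *Rrm2* (1 panel each, axis from 0) in each library of the 6 groups, with wild-type in blue, *Usb1* knockout (KO) in orange, the group mean as a line and the SD as a bar. *Cdt1* and *Orc1* drop by day 1 and further by day 3, *Orc6* stays between 137 and 171 TPM, *Rpa1* and *Rpa3* peak at day 1, and *Rrm2* drops mainly after day 1.

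Of the genes that supply nucleotides, *Rrm2*, the regulated subunit of ribonucleotide reductase, fell most. *Rrm2* (ENSMUSG00000020649; GRCm38 chromosome 12, 24708241 to 24714146, plus strand) was at 465 and 489 TPM at day 0, 399.6, 397 and 423 at day 1 and 181, 181 and 189 at day 3 in wild-type libraries. In the knockout *Rrm2* was at 574, 596 and 596 TPM at day 0, 451, 474 and 438 at day 1 and 183, 192 and 195 at day 3. The knockout libraries were above the wild-type ones at day 0 and day 1 and overlapped with them at day 3. After day 1 *Rrm2* changed by −1.14 (SE 0.05, adjusted p = 6.48e-11) in wild-type and −1.25 (SE 0.05, adjusted p = 2.29e-11) in *Usb1* knockout cells. *Rrm1*, the large subunit of the same enzyme, changed by −0.41 (SE 0.07, adjusted p = 0.000147) and −0.29 (SE 0.07, adjusted p = 0.0027). The ratio of *Rrm2* to *Rrm1* TPM was 5.71 ± 0.364 (SD, n = 2), 4.92 ± 0.170 and 2.97 ± 0.124 (SD, n = 3 each) over the days in wild-type cells, and 7.03 ± 0.0708, 5.30 ± 0.369 and 2.71 ± 0.237 (SD, n = 3 each) in *Usb1* knockout cells. *Tyms*, which makes thymidylate, was at 50.2 and 45.2 TPM at day 0, 50.02, 47.7 and 50.3 at day 1 and 26.5, 30.1 and 33.5 at day 3 in wild-type libraries. In the knockout *Tyms* was at 48.2, 48.9 and 47.9 TPM at day 0, 49.4, 50.8 and 49.1 at day 1 and 34.6, 31.8 and 33.4 at day 3. It did not pass the test on the first day (0.05 and 0.04) and changed by −0.70 (SE 0.07, adjusted p = 1.73e-06) and −0.57 (SE 0.07, adjusted p = 1.47e-05) after it.

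Between the genotypes the differences were small, and no member differed 2-fold at any day, where 3.05% of all genes did at day 0, 2.22% at day 1 and 1.29% at day 3. At day 0, 6 of the 42 passed the test (11.9% of all genes), 3 of them higher in the knockout (5.08%) and 3 lower (6.80%). The split was 5 higher and 2 lower with an equal median and 4 higher and 1 lower after quantile normalization. Higher were *Gins4*, 0.35 (SE 0.07, adjusted p = 0.00438), *Rrm2*, 0.30 (SE 0.05, adjusted p = 0.00186), and *Gins2*, 0.29 (SE 0.07, adjusted p = 0.0176), whose wild-type libraries had 44.8 and 50.8 TPM against 59.1, 61.0 and 56.2 TPM in the knockout. Lower were *Mcm6*, −0.65 (SE 0.05, adjusted p = 4.45e-06), *Orc2*, −0.26 (SE 0.08, adjusted p = 0.0461), and *Pold1*, −0.18 (SE 0.05, adjusted p = 0.0429). This number varied with the wild-type libraries and was 2 without replicate 1, which had few genes of a single read, 12 without replicate 2 and 3 without knockout replicate 2. It was 3 without both libraries that had few genes of a single read. *Mcm6* and *Rrm2* passed without any 1 library. *Gins4* did not without wild-type replicate 1 (adjusted p = 0.0631), nor did *Gins2* without it (0.176) or without knockout replicate 2 (0.0634). *Orc2* was lost without wild-type replicate 1 (0.277) or any knockout replicate (0.0966 to 0.0985), and *Pold1* without any 1 library but knockout replicate 3 (0.0627 to 0.147).

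At day 1 the knockout had 5 members higher and 2 lower (17.3% of all genes passed, 3.74% higher and 13.6% lower). All genes had a median of −0.13 there, and with an equal median 18 members were higher and 0 lower. That scaling moves the other genes as well, and the share of all genes past the test under it is not given here. Higher were *Rfc3*, 0.36 (SE 0.07, adjusted p = 0.00203), *Pold2*, 0.32 (SE 0.07, adjusted p = 0.00759), *Gins4*, 0.32 (SE 0.06, adjusted p = 0.00249), *Cdt1*, 0.19 (SE 0.05, adjusted p = 0.0177), and *Rrm2*, 0.16 (SE 0.05, adjusted p = 0.0268). Lower were *Mcm6*, −0.49 (SE 0.05, adjusted p = 1.11e-05), and *Rpa1*, −0.35 (SE 0.04, adjusted p = 3.82e-05), and with an equal median these were at −0.25 and −0.11 and did not pass. The 41 other protein-coding genes with a mean of at least 10 TPM within 2.5 Mb of *Rpa1* had a median of −0.29 at day 1 and −0.03 at day 3, looked at after its values were seen, and *Rpa1* itself was at −0.08 at day 3. *Cdt1* did not pass without wild-type replicate 1 or 2 or knockout replicate 1 (adjusted p from 0.0595 to 0.0703), nor *Rrm2* without replicate 1 or 2 of either genotype (0.0606 to 0.106). At day 3, 7 members were higher and 1 lower (7.52% of all genes passed, 3.96% higher and 3.56% lower), and with an equal median 2 were higher and 0 lower. Higher were *Rfc4*, 0.35 (SE 0.09, adjusted p = 0.0351), *Orc2*, 0.34 (SE 0.07, adjusted p = 0.00712), *Pold2*, 0.28 (SE 0.07, adjusted p = 0.0253), *Mcm5*, 0.27 (SE 0.04, adjusted p = 0.000891), *Mcm3*, 0.25 (SE 0.05, adjusted p = 0.00538), *Rfc3*, 0.24, and *Gins1*, 0.23. *Mcm6* was lower, −0.27 (SE 0.05, adjusted p = 0.00255). The number was 4 without wild-type replicate 3 and 5 without wild-type replicate 1 or knockout replicate 1 or 2, and *Orc2*, *Mcm5*, *Mcm3* and *Mcm6* passed without any 1 library. *Rfc4* did not pass without any 1 but knockout replicate 2 (adjusted p from 0.0528 to 0.139), and *Gins1* without any 1 but knockout replicate 3 (0.0514 to 0.179). *Pold2* was lost without wild-type replicate 1 or 3 or knockout replicate 1 or 2 (0.0788 to 0.0922), and *Rfc3* without wild-type replicate 2 or 3 or knockout replicate 1 or 2 (0.0524 to 0.137). The members' median was 0.12 at day 3, beside 0.00 over all genes. Markers of cell types also differed between the genotypes. Of 6 primitive endoderm markers, 2 were lower in the knockout at day 0, 5 at day 1 and 6 at day 3. At day 0 these markers summed to 11.4 and 25.6 TPM in the wild-type libraries and to 10.9, 9.60 and 10.1 TPM in those of the knockout. Of 8 pluripotency markers, 3 were higher at day 1, and 6 were higher and 1 lower at day 3, while of 4 fibroblast markers tested 1 was lower at day 1 and 4 were higher at day 3. The part of these in the members' differences was not tested.

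*Mcm6* (ENSMUSG00000026355; GRCm38 chromosome 1, 128331590 to 128359664, minus strand) was the 1 member lower in the knockout at all 3 days. It was at 561 and 558 TPM at day 0, 463, 459 and 488 at day 1 and 236, 265 and 254 at day 3 in wild-type libraries. In the knockout *Mcm6* was at 344, 363 and 359 TPM at day 0, 329.6, 336 and 335 at day 1 and 212, 198 and 213 at day 3. The genotypes did not overlap at any day. At day 3 the call was lost with an equal median and in a fit of the day 3 libraries alone (highest adjusted p = 0.159). As a share of the summed TPM of *Mcm2* to *Mcm7*, it was 19.2% ± 0.0873 (SD, n = 2), 18.2% ± 0.486 and 20.3% ± 0.580 (SD, n = 3 each) over the days in wild-type cells, and 12.7% ± 0.113, 13.3% ± 0.275 and 15.6% ± 0.793 (SD, n = 3 each) in *Usb1* knockout cells. The difference was shared by the genes around it, a comparison made after these values were seen. Between 125 and 140 Mb of chromosome 1 lie 62 other protein-coding genes with a mean of at least 10 TPM, and at day 0 their median log2 fold change was −0.59, with 56 below 0 and 44 past the test as lower, where 10.6% of 9241 such genes were lower. At day 1 the median was −0.66 with 52 lower (23.8% of such genes), and at day 3 it was −0.49 with 36 lower (5.61%). Outside 110 to 140 Mb, the 26 intervals of 5 Mb of the chromosome with at least 5 such genes had medians between −0.29 and 0.15 at day 0. The nearest genes on either side, *Ubxn4* and *Dars*, had log2 fold changes of −0.47 (SE 0.05, adjusted p = 8.48e-05) and −0.54 (SE 0.09, adjusted p = 0.00164) at day 0. *Mcm6* differed less than the median of the genes within 2.5 Mb of it, which was −0.73 at day 0, −0.79 at day 1 and −0.51 at day 3. With a single knockout line, a difference that belongs to this stretch of the chromosome and an effect of *Usb1* on *Mcm6* cannot be told apart.

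**Figure D5:**
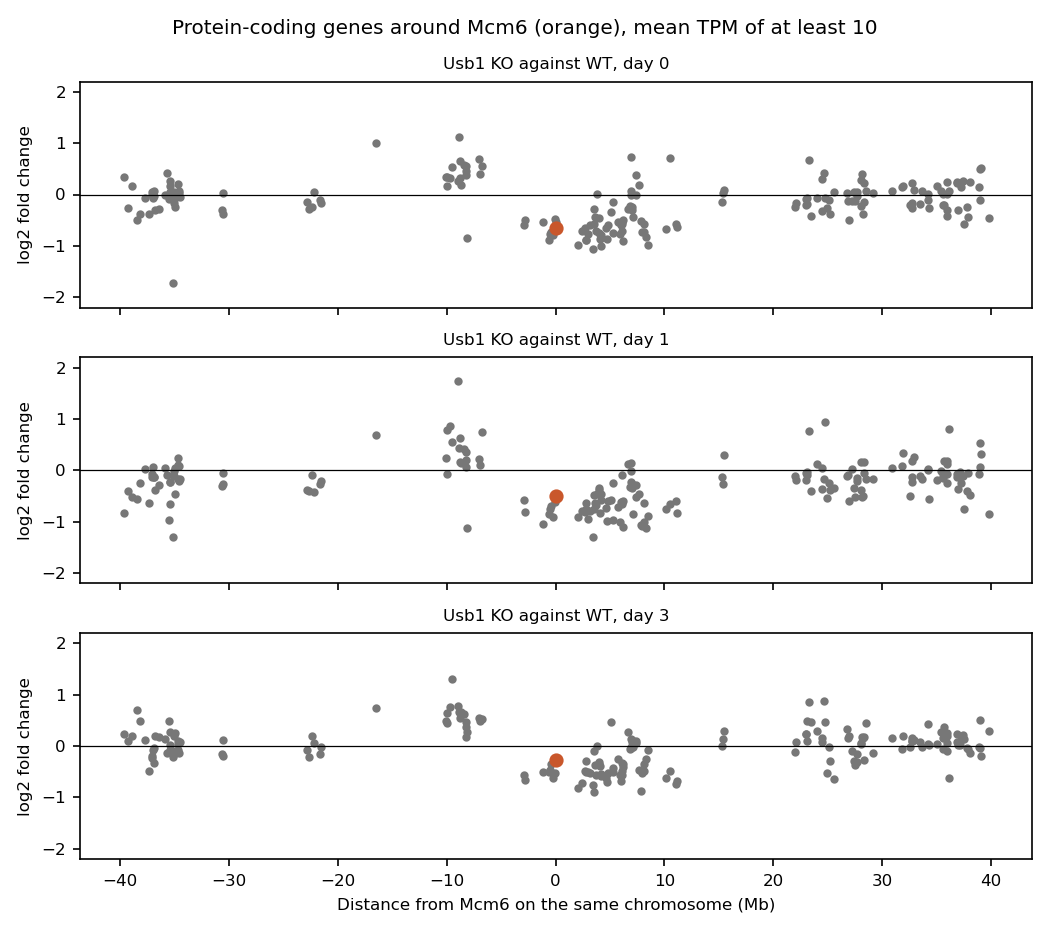
Log2 fold change of the knockout relative to wild type, day by day, for protein-coding genes with a mean of at least 10 TPM (grey points) by distance from *Mcm6* (orange) along the same chromosome in Mb. At all 3 days the genes just around *Mcm6* lie mostly below 0, a cluster about 10 Mb to the left lies mostly above it, and genes further away scatter around it.

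Whether RA moved the genes by different amounts in the genotypes was tested as an interaction. From day 0 to day 1 no member passed (0 by limma on TPM and 1 by limma's voom on recovered reads, with 2.23% of all genes past the test), and 8 had an unadjusted p under 0.05. Without wild-type replicate 2 of day 0, 7 members passed at an adjusted p under 0.05. From day 0 to day 3, 4 members passed (6.15% of all genes), and these were *Orc2*, 0.60 (SE 0.10, adjusted p = 0.00414), *Mcm6*, 0.38 (SE 0.07, adjusted p = 0.00735), and *Mcm5*, 0.26 (SE 0.06, adjusted p = 0.027), which fell less in the knockout, and *Rrm2*, −0.26 (SE 0.07, adjusted p = 0.038), which fell more. After quantile normalization 4 were positive and 0 negative, and with an equal median 1 and 0. The number was 2 without wild-type replicate 1 of day 0, 10 without replicate 2, and 2 without wild-type replicate 1 or 2 of day 3 or knockout replicate 2 of day 0. It was also 2 without both libraries that had few genes of a single read. *Orc2* and *Mcm6* passed without any 1 library, *Mcm5* was lost without 5 of the 11 libraries (adjusted p from 0.0509 to 0.119) and *Rrm2* without 8 (0.0526 to 0.146). From day 1 to day 3, 2 members passed (7.61% of all genes), *Rpa1*, 0.27 (SE 0.06, adjusted p = 0.00976), and *Mcm5*, 0.24 (SE 0.06, adjusted p = 0.0238), both with a smaller fall in the knockout. All genes had a median of 0.13 in this comparison, and with an equal median 1 member was negative and 0 positive. *Rpa1* passed without any 1 library, *Mcm5* was lost without 6 of the 12 (adjusted p from 0.0506 to 0.0692), and the number was 1 without wild-type replicate 1 of either day, wild-type replicate 3 of day 1 or knockout replicate 3 of day 1. It was 6 without knockout replicate 1 of day 3, the library with 1224 genes of a single read, and 7 without both libraries that had few such genes.

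Other genes of the same process also fell from day 1 to day 3. In a list of 40 further replication genes, which holds kinases, checkpoint, chromatin assembly and nucleotide genes, 32 were lower and 1 higher from day 1 to day 3 in wild-type cells, and 27 lower and 1 higher in *Usb1* knockout cells, with medians of −0.45 and −0.41. Over all genes 24.3% and 19.4% were lower, 19.5% and 25.5% higher, and the medians were −0.07 and 0.04, the background also for the other lists in these 2 comparisons. The cohesin acetyltransferase *Esco2*, −1.42 (SE 0.09, adjusted p = 1.19e-08) and −1.15 (SE 0.09, adjusted p = 1.1e-07), and the nuclease *Dna2*, −1.24 (SE 0.06, adjusted p = 4.41e-10) and −0.97 (SE 0.06, adjusted p = 6.09e-09), were among the largest falls in both genotypes. Of 13 genes of the E2F and Rb families, which switch S phase genes on and off, 9 were lower and 2 higher in wild-type cells, and 8 lower and 3 higher in *Usb1* knockout cells, with the numbers higher near the share of all genes. The activators *E2f1*, −1.25 (SE 0.11, adjusted p = 3.82e-07) and −0.86 (SE 0.11, adjusted p = 1.72e-05), and *E2f2*, −1.21 (SE 0.12, adjusted p = 1.18e-06) and −1.27 (SE 0.12, adjusted p = 7.37e-07), fell in both, as did the repressor *E2f8*, −1.28 (SE 0.12, adjusted p = 6.35e-07) and −1.29 (SE 0.12, adjusted p = 5.96e-07). Between the genotypes at day 0, 3 of these 13 were lower in the knockout and 0 higher (6.80% and 5.08% of all genes), *Rbl2*, −0.60 (SE 0.17, adjusted p = 0.0335), *Tfdp2*, −0.52 (SE 0.12, adjusted p = 0.0146), and the repressor *Rb1*, −0.51 (SE 0.12, adjusted p = 0.0118). At day 1, 3 were lower and 0 higher (13.6% and 3.74% of all genes). At day 3, 0 were lower and 2 higher (3.56% and 3.96%). These calls were not tried with libraries left out.

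Of 24 genes of mitosis, which peak later in the cycle than the members, 7 were higher and 2 lower from day 0 to day 1 in wild-type cells, and 5 higher and 3 lower in *Usb1* knockout cells, shares near those of all genes (25.5% higher and 12.5% lower, and 16.0% and 11.7%). The mitotic kinase *Cdk1* was the largest of these in wild-type cells, 0.44 (SE 0.06, adjusted p = 5.35e-05). From day 1 to day 3, 20 were lower and 0 higher in wild-type and 18 lower and 1 higher in *Usb1* knockout cells, led by the checkpoint kinase *Bub1b*, −1.07 (SE 0.05, adjusted p = 2.95e-10) and −0.78 (SE 0.05, adjusted p = 8.74e-09), with medians of −0.53 and −0.46. Marker sums of other cell types moved over the same days. The 6 markers of primitive endoderm summed to 9.60 to 25.6 TPM at day 0 over both genotypes, and to 549 to 598 TPM in wild-type and 276 to 317 TPM in *Usb1* knockout libraries at day 3. The 5 fibroblast markers summed to 7.92 to 13.5 TPM at day 0 and to 40.4 to 51.9 and 71.3 to 84.1 TPM at day 3, with *Postn* at or near 0 throughout. The neural sum was 91.4 to 156 TPM, the mesoderm sum 2.02 to 9.70 TPM and the trophoblast sum 14.3 to 48.5 TPM over all libraries, with *Pax6*, *T* and *Elf5*, which define them, at a group mean of at most 1.93 TPM. Single markers moved within these sums. In wild-type cells from day 0 to day 3, log2 fold changes ran from −2.66 to 3.60 over the neural markers tested. They ran from −1.09 to −0.25 over those of mesoderm and from −1.76 to 3.49 over those of trophoblast. The part of these changes in cell type in the fall of the replication genes was not tested.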

How the data were processed

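Total RNA of wild-type and *Usb1* knockout R1/E mESCs was sequenced in 17 libraries. The deposited values are TPM that the authors calculated from gene length and mapped reads. The submitters' processing notes name HISAT2 2.1.0, StringTie 1.3.6 and GRCm38.p6, and the strand setting of the counting is not given in the sources used here. Genes that reached 1 TPM in 2 or more libraries were kept (21871), and log2(TPM + 1) was fitted with limma 3.58.1 in R 4.3.3 over the 6 groups, with a variance trend and Benjamini-Hochberg adjustment over all genes tested. Fold changes on this scale understate those of low genes, and every adjusted p printed is limma's. TPM times GENCODE M21 exon length gave whole reads within 0.01 for 95.8% to 96.6% of values, which set the depth and a voom alternative. Counting error alone is covered by depth. The study calls its libraries independent biological replicates, without saying from which cultures, so p-values measure the spread between them. Same-numbered libraries did not deviate together, with correlations from −0.13 to 0.124 and 1 of 40 pairs over 0.1. The method was tested on simulated data. Members and lists were chosen with earlier results of these data known. Values in every library are given for up to 6 members a comparison with the largest passing change and for members that stand for a step, and from other lists up to 4 genes. Alternatives were another pseudocount (0.1), filters, scalings, call rules, voom, a replicate block and leaving out libraries.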

Additional observations from a re-analysis of the deposited data

Results flagged for a closer look

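In 5 genes the response to RA differed between the genotypes by limma's test of the difference itself, given here as the log2 change in *Usb1* knockout minus that in wild-type cells. From day 0 to day 3 the difference was 0.60 for *Orc2*, 0.38 for *Mcm6*, 0.26 for *Mcm5* and −0.26 for *Rrm2*. These were 4 of the 42 members, where 6.15% of all genes passed. From day 1 to day 3 it was 0.24 for *Mcm5* and 0.27 for *Rpa1*, 2 of the 42, where 7.61% of all genes passed. Both numbers are near the share of all genes. The comparisons with day 0 and with day 1 share their day 3 libraries. *Orc2* kept its call in all 22 alternatives. *Mcm6* lost its call with the libraries scaled to an equal median (adjusted p = 0.296 by limma), and *Rpa1* lost its call there and with voom on recovered reads (highest adjusted p = 0.880). *Mcm5* lost both calls with an equal median (0.15 at day 3 vs 0, and 0.0168 at day 3 vs 1 with an adjusted p of 0.965) and with voom, and that at day 3 vs 0 also when the libraries of the comparison were fitted alone. *Rrm2* lost its call with no filter, quantile normalization, an equal median and the libraries of the comparison alone (adjusted p from 0.0516 to 0.156). Both were also lost when single libraries were left out, as given above.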

How the results depend on the processing

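Member counts under the alternatives, here and above, are given without the share of all genes under the same setting. From day 1 to day 3, 36 to 37 members passed the test in wild-type and 34 to 37 in *Usb1* knockout cells when any 1 library was left out. Requiring 2-fold left 0 members between genotypes at each day, 1, 14 and 8 in wild-type cells (day 1 vs 0, 3 vs 0, 3 vs 1), 0, 11 and 6 in *Usb1* knockout cells and 0 and 0 for the interactions at day 3 vs 0 and 3 vs 1. Requiring 1.5-fold left 1, 0 and 0 between genotypes, 6 and 24 in wild-type cells (day 1 vs 0, 3 vs 1), 3, 24 and 23 in *Usb1* knockout cells and 1 and 0 for those interactions. An equal median gave counts of 18 and 2 between genotypes at day 1 and 3, 28 in wild-type cells at day 1 vs 0, and 1 and 1 for the interactions at day 3 vs 0 and 3 vs 1. Its members' medians were 0.17 and 0.27 between genotypes at day 0 and 1, −0.34 and −1.01 in wild-type cells (day 1 vs 0, 3 vs 0), −0.19, −1.06 and −0.84 in *Usb1* knockout cells, and 0.14, −0.0251 and −0.10 for the interactions, the last of which turned sign. It also turned *Pold1* between genotypes at day 1 (0.24) and *Rpa1* from day 0 to day 3 (−0.10 and −0.16), and it moves the median of all genes, between genotypes at day 1 from −0.13 to 0.04. Quantile normalization gave medians of 0.10 between genotypes at day 1 and 0.0167 for the interaction at day 3 vs 1, and 1 member for that at day 1 vs 0. The voom fit gave 13 and 4 members between genotypes at day 1 and 3, 1 and 1 for the interactions at day 1 vs 0 and 3 vs 1, and medians of 0.13, −0.74 (*Usb1* knockout, day 3 vs 1) and 0.0318 (interaction, day 3 vs 1). Fitting the libraries of a comparison alone gave 1 and 1 between genotypes at day 0 and 3, and 1 and 2 for the interactions at day 1 vs 0 and 3 vs 0. A minimum of 5 TPM gave 1 and 4 for the interactions at day 1 vs 0 and 3 vs 1. Leaving out both libraries with few genes of a single read, chosen after seeing the data, gave 3 between genotypes at day 0, and 2 and 7 for the interactions at day 3 vs 0 and 3 vs 1. Leaving out 1 library gave 2 to 12 between genotypes at day 0, 4 to 7 at day 3, and 0 to 7, 2 to 10 and 1 to 6 for the interactions. The replicate block gave 7, 7 and 7 members between genotypes, 17, 39 and 37 in wild-type, 18, 38 and 37 in *Usb1* knockout cells and 0, 4 and 2 for the interactions, and moved no count by over 1.5 times, though the shared numbers are not known to pair libraries. The cause of these changes was not tested. Of the other values for single genes, 9484 stayed on their side of the threshold, 156 came to pass it and 479 no longer did.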

Other observations

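Between 110 and 125 Mb of chromosome 1, next to the stretch that holds *Mcm6*, 19 protein-coding genes with a mean of at least 10 TPM had a median log2 fold change of 0.39 in *Usb1* knockout against wild-type cells at day 0, 0.36 at day 1 and 0.54 at day 3. Of these 19 genes, 12, 9 and 13 passed the test as higher, where 7.19%, 6.93% and 6.88% of 9241 such genes were higher. Among the members, *Rpa3* was at 0.32 at day 0, without passing, beside a neighbour median of 0.34 within 2.5 Mb. Chromosome 8 holds *Mcm5*, *Orc6*, *Cdt1*, *Gins2* and *Gins4*, and its 565 such genes had knockout against wild-type medians of 0.06, −0.01 and 0.10 over the days. These were the highest of all chromosomes compared, beside −0.05, −0.12 and 0.01 over all 9241 such genes. The part of this in those members' differences was not tested. These values were looked at after those of *Mcm6* were seen.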
